A study of Mus musculus with 12 samples.

Results

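The 37 genes described here are known from macrophages, monocytes, neutrophils and dendritic cells, and their RNA was read as a trace of such cells in samples prepared from T-lineage cells. They were taken by symbol from a deposited table of 54351 mouse genes. All 37 were among the 20897 genes with enough counts to be tested. Polyadenylated RNA of 12 samples in 4 groups of 3 libraries was sequenced as read pairs of 150 bases. The groups were leukaemic cells (T-ALL, a T-lineage acute leukaemia) prepared from spleen (LN3 spleen) or thymus (LN3 thymus) of LN3 transgenic mice that were overtly sick, spleen CD8+ T cells of tumour-free wild-type mice (WT CD8), and thymocytes of tumour-free wild-type mice (WT thymocytes). All mice were C57BL/6. The labels name the LN3 genotype only as LN3 tg, and give neither the transgenes and their promoters nor the age of the mice. All organs were dissociated mechanically, and the WT CD8 cells alone were enriched, with a negative selection kit and to a stated purity of 85 to 95%. Genotype and enrichment therefore cannot be told apart in the spleen, nor organ and enrichment in the wild-type mice. Separate animals are not stated for the samples within a group, and p-values therefore cover the spread among these samples alone, which may be technical. The LN3 spleen and thymus samples carry the same T-ALL numbers in their titles and may share mice. The main test did not pair them.

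Monocytes, neutrophils, most dendritic cells and some macrophages arise from bone marrow progenitors. The transcription factors PU.1 and C/EBP and the growth factors CSF1, G-CSF and FLT3 ligand direct this. Macrophages of the thymus take up the many thymocytes that die during selection, and its dendritic cells present antigens to the surviving ones. The spleen holds red pulp macrophages that recycle iron from old red blood cells, as well as monocytes, neutrophils and dendritic cells, and in the mouse it can also make blood cells.

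The promoters of these genes are shown first because PU.1, encoded by the member Spi1, and C/EBP, encoded by the members Cebpa and Cebpb, are the factors through which myeloid genes are known to be switched on together. RefSeq promoter windows (GRCm38.p6, 250 bases before to 50 after a gene start) were at hand for 28 of the 37 genes, in 30 windows. The members without one were Csf1r, Adgre1, Cd14, C1qa, Arg1, Tyrobp, Spi1, Cd74 and H2-Ab1. Letters were searched on both strands. The PU.1 core GAGGAAGT was in 5 of the 30 windows (16.7%), against 1052 of all 32851 windows (3.2%). Its windows belonged to the neutrophil genes S100a8, Elane and Mpo, the complement gene C1qc and the protease gene Ctss. The C/EBP letters TTGCNNCAA were in 1 member window (3.33%, against 2.08% of all windows), that of Csf3r. The AP-1 letters TGANTCA were in 2 windows (6.67%, against 7.81% of all windows), those of Cd68 and Ms4a7. The Y box letters CTGATTGG, known from MHC class II promoters, were in 2 windows (6.67%, against 4.1%), those of H2-Aa and H2-Eb1. No window held more than 1 of the 4 motifs, so none overlapped. In these stretches, 5′ to 3′ on the strand of the gene, capitals mark the matched letters, and a PU.1 match on the opposite strand reads ACTTCCTC. They lie at chr3:90668871-90668930 on the plus strand (S100a8), chr10:79886187-79886246 on the plus strand (Elane), chr4:136893075-136893134 on the minus strand (C1qc), chr4:126024469-126024528 on the plus strand (Csf3r), chr17:34287854-34287943 on the minus strand (H2-Aa) and chr17:34305747-34305836 on the plus strand (H2-Eb1). A match describes the letters only.
S100a8: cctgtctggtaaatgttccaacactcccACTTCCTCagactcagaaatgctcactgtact
Elane: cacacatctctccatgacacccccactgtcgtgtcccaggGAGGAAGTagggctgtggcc
C1qc: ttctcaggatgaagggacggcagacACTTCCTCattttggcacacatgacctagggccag
Csf3r: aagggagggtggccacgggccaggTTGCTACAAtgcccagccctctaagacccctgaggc
H2-Aa: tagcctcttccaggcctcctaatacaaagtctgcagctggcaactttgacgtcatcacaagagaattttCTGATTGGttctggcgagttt
H2-Eb1: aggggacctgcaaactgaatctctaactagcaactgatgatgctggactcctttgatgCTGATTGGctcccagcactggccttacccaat

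Levels are given as CPM, the count relative to the scaled size of the library, for libraries 1 to 3 of a group in that order. They are not divided by transcript length, so they compare libraries, not genes. Total counts ran from 12694571 to 42483898 per library, so that 3 counts correspond to 0.0657 to 0.262 CPM. The 11 T-cell markers had counts in every library and summed to 5396 to 5851 CPM in LN3 spleen, 4410 to 8282 CPM in LN3 thymus, 2549 to 3918 CPM in WT CD8 and 5128 to 10668 CPM in WT thymocytes. Markers of thymic epithelium summed to 14.1 to 44.4 CPM and those of stroma to 112 to 369 CPM over the 12 libraries. The 37 genes took 0.378%, 0.0998% and 0.0822% of all counts in LN3 spleen, 0.0252%, 0.0474% and 0.0811% in LN3 thymus, 0.400%, 0.6004% and 0.0558% in WT CD8, and 0.0646%, 0.0459% and 0.0891% in WT thymocytes. All 37 had counts in 11 of the 12 libraries. LN3 thymus 1 lacked only Elane, where a count of 0 allows up to 0.126 CPM. In bulk RNA, fewer cells of a type and less RNA per cell cannot be told apart.

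The libraries of a group differed widely, and mostly in the same order from gene to gene. LN3 spleen 1 was the highest of its group for 35 of the 37 genes, whereas 30.0% of all tested genes were highest there. LN3 thymus 1 was the lowest of its group for 35 genes (34.8% of all tested genes), WT CD8 3 for 34 genes (27.9%), and WT thymocytes 3 was the highest of its group for 31 genes (44.9%). The highest level over all 12 libraries lay in WT CD8 2 for 13 genes, in LN3 spleen 1 for 12, in WT CD8 1 for 10 and in LN3 thymus 3 for 2. The share of counts on 4 genes that collect ribosomal RNA reads had the same order of libraries as the share of the 37 genes in LN3 spleen and WT thymocytes, and the same lowest library in LN3 thymus and WT CD8. It was 14.9%, 8.34% and 7.21% in LN3 spleen, 0.868%, 15.4% and 7.74% in LN3 thymus, 2.67%, 2.06% and 1.35% in WT CD8, and 2.28%, 1.37% and 8.17% in WT thymocytes. With those 4 genes left out of the fit, the number of the 37 genes called in each direction was the same in every comparison, and the part of ribosomal RNA in the levels was not tested further.

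**Figure D1:**
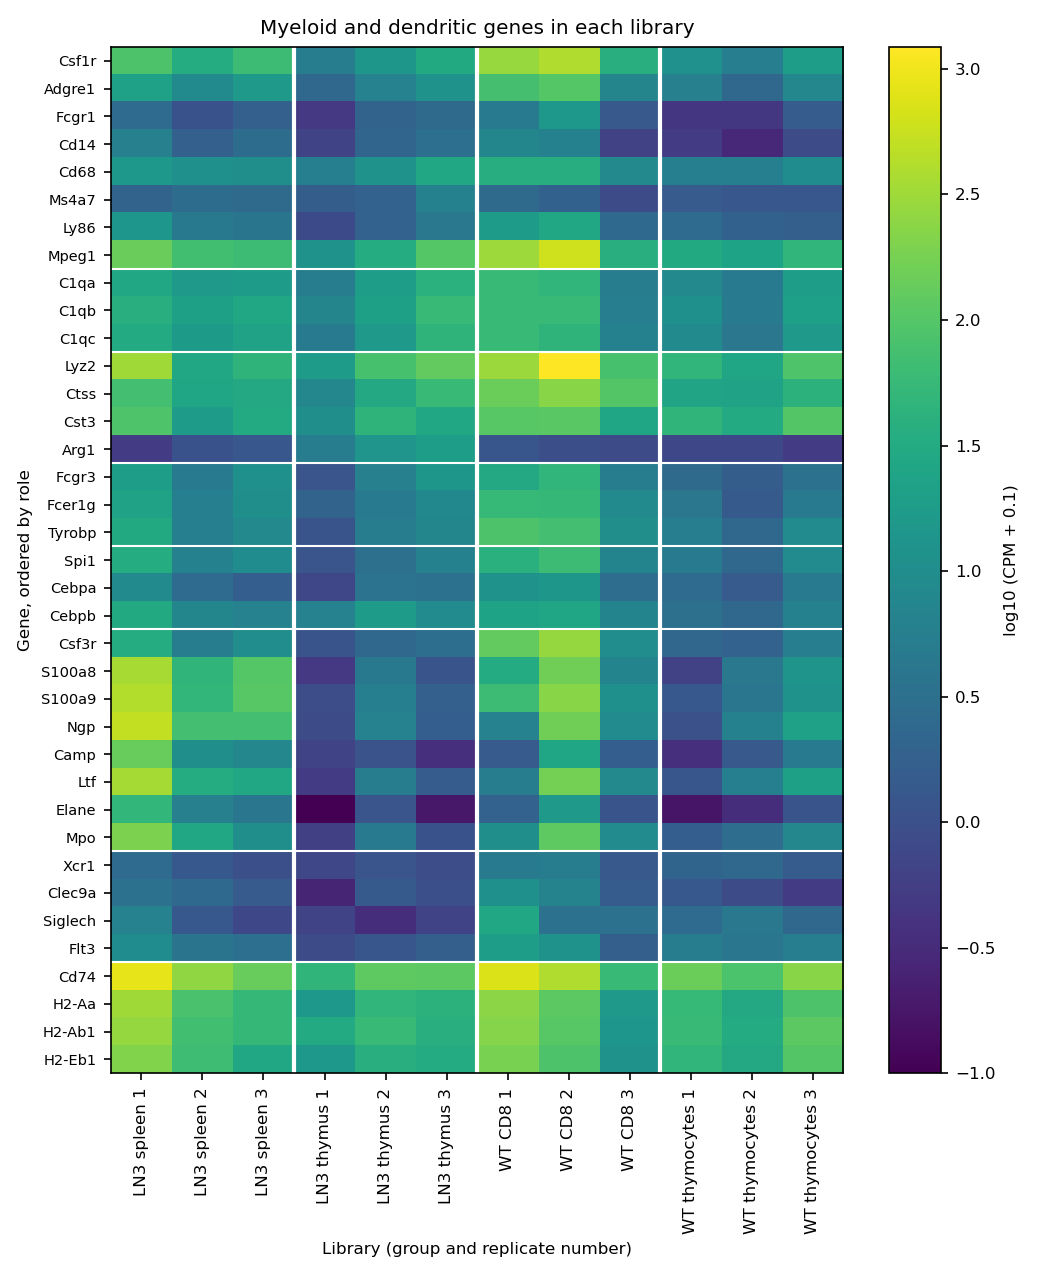
Level of each of the 37 genes (down the page, ordered by role, white lines between roles) in each of the 12 libraries (across), as the log10 of CPM + 0.1 in colour. LN3 spleen 1, WT CD8 1 and WT CD8 2 are the brightest columns, and the neutrophil genes are dark in all 3 LN3 thymus libraries.

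**Figure D2:**
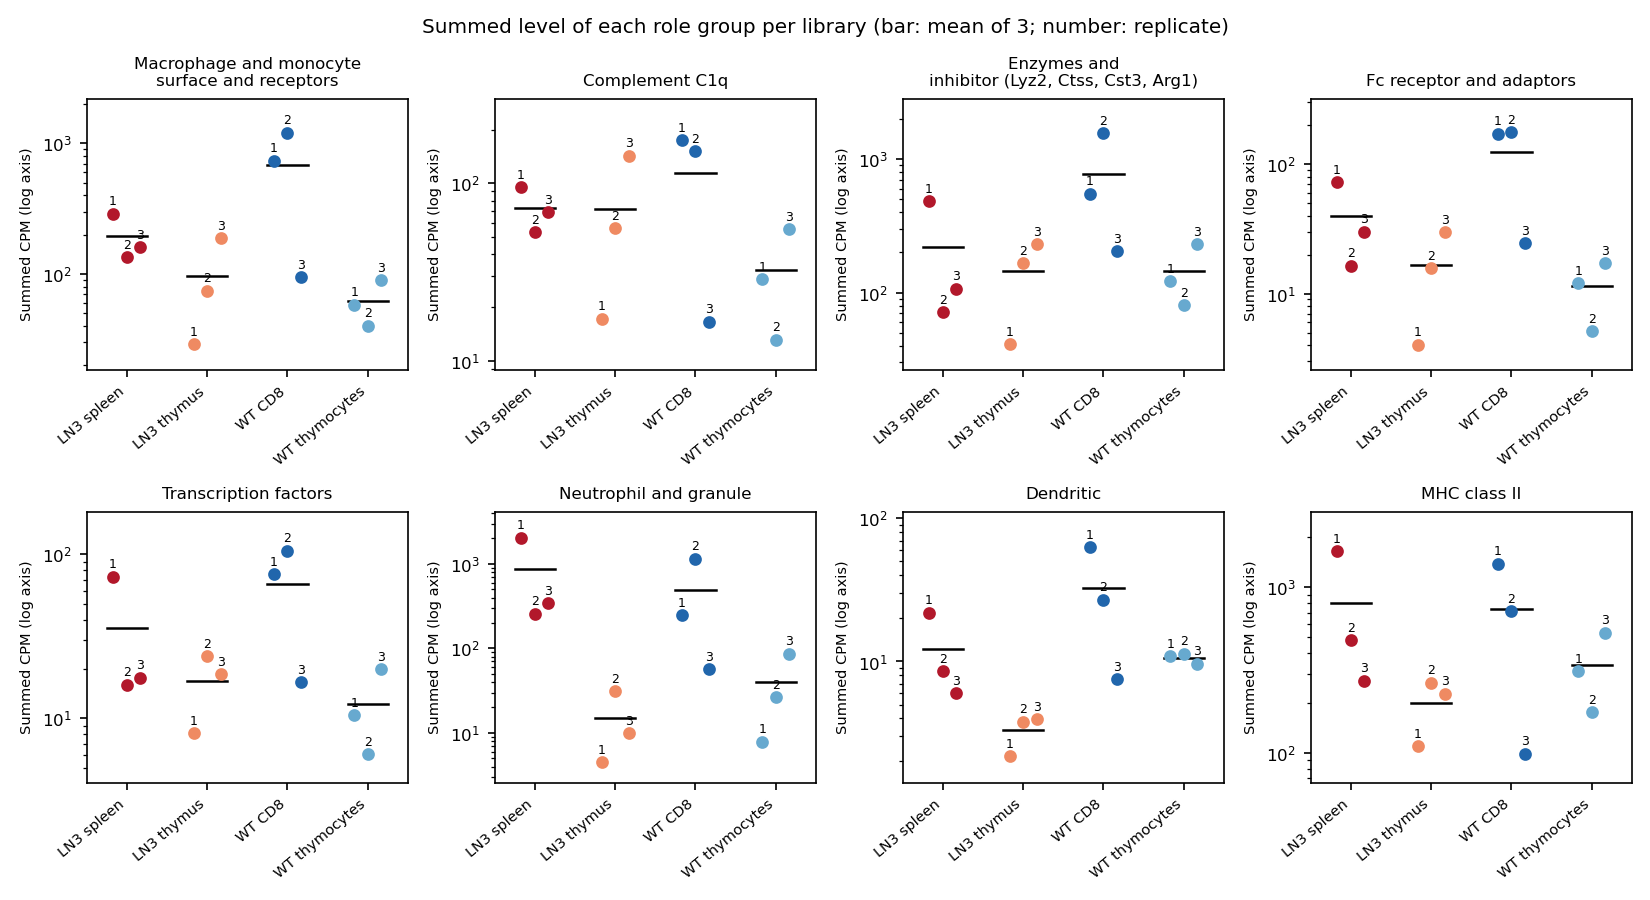
Summed CPM of each of the 8 role groups (panels, log axis) in each library (points, numbered by replicate), with bars at the mean of 3. In WT CD8, library 3 lies far below libraries 1 and 2 in every panel.

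Of 8 genes of the macrophage and monocyte surface, 7 rose in WT CD8 relative to WT thymocytes, beside 7.24% of all tested genes. Between LN3 and wild-type cells edgeR called 0 of the 8 in either organ, beside 11.3% of all tested genes in the thymus and 30.9% in the spleen. In the thymus 2 had an unadjusted p below 0.05 and DESeq2 and limma called 0, and in the spleen 4 had one, DESeq2 called 2 lower (Csf1r and Adgre1) and limma 0. A gene was called when its adjusted p (edgeR's quasi-likelihood test, Benjamini-Hochberg over all 20897 genes) was below 0.05. Csf1r, the receptor of the macrophage growth factor CSF1, stood at 87.5, 34.1 and 62.3 CPM in LN3 spleen, at 5.21, 14.6 and 30.8 CPM in LN3 thymus, at 282, 400.1 and 36.6 CPM in WT CD8, and at 11.7, 5.58 and 18.9 CPM in WT thymocytes. All LN3 spleen libraries lay above all LN3 thymus libraries, and all WT CD8 libraries above all WT thymocyte libraries, while LN3 and wild-type libraries overlapped within each organ. In WT CD8 relative to WT thymocytes Csf1r rose by 4.32 in log2 units, with an SE of 0.86 (adjusted p = 0.00509). Its differences of 0.49 in LN3 thymus relative to WT thymocytes (adjusted p = 0.754) and of −1.97 in LN3 spleen relative to WT CD8 (SE 0.78, adjusted p = 0.0708) were not called.

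Adgre1, which encodes the macrophage antigen F4/80, stood at 21.6, 8.54 and 15.4 CPM in LN3 spleen, 2.23, 6.45 and 11.8 CPM in LN3 thymus, 76.3, 104 and 7.25 CPM in WT CD8, and 6.01, 2.33 and 7.66 CPM in WT thymocytes. Mpeg1, a pore-forming protein of phagocytes, stood at 142, 70.8 and 62.2 CPM in LN3 spleen, 12.6, 34.0 and 102 CPM in LN3 thymus, 314, 622 and 37.4 CPM in WT CD8, and 30.4, 23.2 and 48.3 CPM in WT thymocytes. For both genes WT CD8 1 and 2 lay above all other libraries, and WT CD8 3 lay among the WT thymocytes. Cd68, a lysosomal membrane protein, stood at 15.0, 10.97 and 10.8 CPM in LN3 spleen, 5.67, 12.1 and 27.7 CPM in LN3 thymus, 35.6, 35.4 and 8.32 CPM in WT CD8, and 5.61, 5.77 and 9.63 CPM in WT thymocytes. Ly86, the partner of a Toll-like receptor homologue, stood at 13.9, 4.43 and 3.82 CPM in LN3 spleen, 0.714, 1.82 and 4.22 CPM in LN3 thymus, 17.2, 27.2 and 2.41 CPM in WT CD8, and 2.64, 1.78 and 1.63 CPM in WT thymocytes. LN3 thymus 3 lay above all WT thymocytes for both genes, LN3 thymus 2 for Cd68 only, and the LN3 thymus and WT thymocyte groups overlapped.

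Fcgr1, the high-affinity IgG receptor, was low throughout, at 2.62, 0.956 and 1.71 CPM in LN3 spleen, 0.378, 1.90 and 2.53 CPM in LN3 thymus, 4.81, 15.0 and 1.27 CPM in WT CD8, and 0.338, 0.368 and 1.46 CPM in WT thymocytes. Cd14, a co-receptor for bacterial lipopolysaccharide, stood at 5.84, 1.68 and 2.68 CPM in LN3 spleen, 0.588, 2.07 and 3.01 CPM in LN3 thymus, 7.49, 6.26 and 0.547 CPM in WT CD8, and 0.405, 0.184 and 0.774 CPM in WT thymocytes. LN3 thymus 2 and 3 lay above all WT thymocytes for both genes, with LN3 thymus 1 among them, and the Cd14 difference of 2.08 (SE 0.95, adjusted p = 0.196) was not called. Ms4a7, a membrane protein of macrophages, was the one gene of this group without a call in any comparison, and ran from 0.744 to 6.22 CPM over all libraries. Its 3 LN3 thymus libraries lay above the 3 WT thymocyte libraries.

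The C1q genes encode the 3 chains of the first complement component, which macrophages and immature dendritic cells are known to make. Unlike Csf1r, they did not separate LN3 spleen from LN3 thymus. C1qb stood at 36.4, 20.7 and 28.6 CPM in LN3 spleen, 7.22, 20.7 and 57.5 CPM in LN3 thymus, 59.4, 55.8 and 5.45 CPM in WT CD8, and 11.4, 4.54 and 20.4 CPM in WT thymocytes. Mean levels were 28.6 ± 7.81 CPM in LN3 spleen and 28.5 ± 26.04 CPM in LN3 thymus (SD, n = 3 each), and the groups overlapped in each of the 4 comparisons. In LN3 thymus relative to WT thymocytes the log2 differences were 1.03 for C1qa, 1.24 for C1qb and 1.21 for C1qc (SE 0.82 to 0.83, adjusted p 0.397 to 0.489). None of them was called, beside 11.3% of all tested genes. Over the 12 libraries C1qa ran from 4.54 to 58.9 CPM and C1qc from 4.05 to 56.9 CPM, both lowest in WT thymocytes 2 and highest in WT CD8 1.

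Set against Csf1r within each library, the summed C1q genes separated the organs, as Csf1r alone did. The part of Csf1r in this separation was not tested. The ratio of C1q to Csf1r and those below were chosen after their values were seen and have no test. Their size depends on transcript lengths, so only differences between libraries can be read. The ratio of summed C1q to Csf1r was 1.09, 1.56 and 1.11 in LN3 spleen, 3.31, 3.802 and 4.66 in LN3 thymus, 0.622, 0.379 and 0.453 in WT CD8, and 2.46, 2.35 and 2.91 in WT thymocytes. No pair of groups overlapped, and each LN3 group lay above the wild-type group of its organ. WT CD8 3, which held far less of Csf1r and the C1q genes than WT CD8 1 and 2, had a ratio between theirs.

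**Figure D3:**
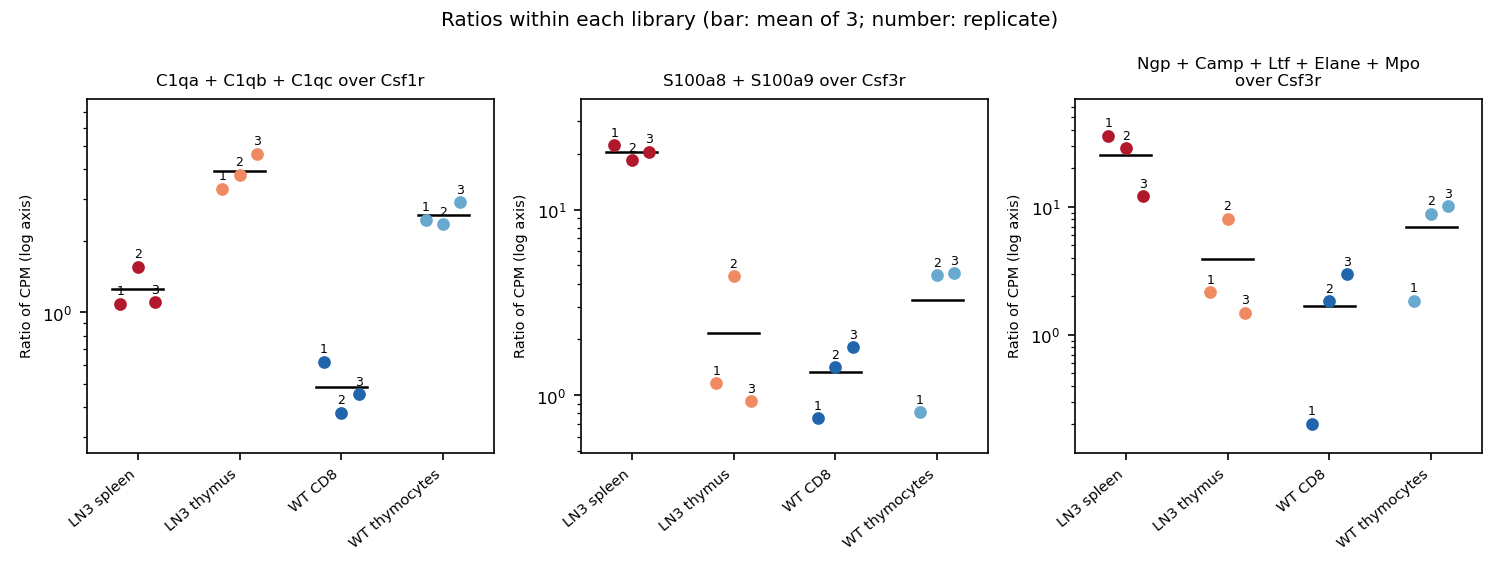
Ratio of CPM within each library (points, numbered by replicate, log axis) for the C1q genes over Csf1r, S100a8 and S100a9 over Csf3r, and 5 granule genes over Csf3r, with bars at the mean of 3. The C1q ratio is above 2 in all thymus libraries and below 2 in all spleen libraries, and both neutrophil ratios are highest in LN3 spleen.

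Of the enzymes and inhibitors, Lyz2 encodes a lysozyme of macrophages and neutrophils. Lyz2 stood at 316, 26.9 and 44.7 CPM in LN3 spleen, 17.6, 78.9 and 126 CPM in LN3 thymus, 296, 1223 and 78.2 CPM in WT CD8, and 48.8, 25.8 and 91.9 CPM in WT thymocytes. WT CD8 2 lay far above the rest, all groups overlapped, and edgeR called Lyz2 in no comparison. Cst3, a secreted inhibitor of cysteine proteases that is high in dendritic cells, ran from 10.9 to 109.8 CPM and was also called in none by edgeR. In WT CD8 relative to WT thymocytes DESeq2 called 2 of these 4 genes higher, and edgeR and limma 1, beside 7.24% of all tested genes by edgeR. Ctss, cathepsin S, which trims the invariant chain of MHC class II (chr3:95526786-95556403, GENCODE M21 on GRCm38), stood at 73.5, 24.96 and 29.6 CPM in LN3 spleen, 7.56, 28.9 and 57.7 CPM in LN3 thymus, 148, 233 and 100.1 CPM in WT CD8, and 24.6, 22.5 and 41.5 CPM in WT thymocytes. All 3 LN3 spleen libraries lay below all 3 WT CD8 libraries, and LN3 thymus spanned WT thymocytes.

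Arg1, arginase 1, was the member that set LN3 thymus apart. The enzyme breaks down arginine and is known from alternatively activated macrophages and suppressive myeloid cells (chr10:24915221-24927484). Arg1 stood at 0.436, 0.985 and 1.196 CPM in LN3 spleen, at 5.08, 13.6 and 19.1 CPM in LN3 thymus, at 1.15, 0.854 and 0.788 CPM in WT CD8, and at 0.676, 0.675 and 0.430 CPM in WT thymocytes. All LN3 thymus libraries lay above all 9 others. The summed counts were 60 in LN3 spleen, 966 in LN3 thymus, 84 in WT CD8 and 26 in WT thymocytes. Per scaled total, the count ratio of LN3 thymus to WT thymocytes was 22.2 (95% counting interval 15.1 to 34.2), and that of LN3 thymus to LN3 spleen was 14.3 (11.04 to 18.9).

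In LN3 thymus relative to WT thymocytes, Arg1 rose by 4.39 in log2 units, with an SE of 0.60 (adjusted p = 0.000686). It was the 1 member called higher there (6.06% of all tested genes were), and it was called whichever library was left out (adjusted p up to 0.00573). In LN3 spleen relative to LN3 thymus, Arg1 fell by 3.82 (SE 0.57, adjusted p = 0.0151), the 1 member called lower (0.0287% of all tested genes were) and the 1 called in either direction (0.723%). That call ended without LN3 thymus 1 (adjusted p = 0.0714) or LN3 thymus 2 (0.0820). In LN3 spleen relative to WT CD8 its difference was −0.06 (SE 0.54, adjusted p = 0.945). The difference of LN3 from wild type in the spleen minus that in the thymus was −4.44 (SE 0.78, adjusted p = 0.00725). In this interaction the enrichment of WT CD8 cannot be told apart from genotype and organ. Arg1 was the only member called in it (4.19% of all tested genes were). It was the 1 called lower, beside 0.895% of all tested genes, and none was called higher by edgeR, DESeq2 or limma, beside 3.29%, with 1 at an unadjusted p below 0.05. The ratio of Arg1 to Csf1r within a library was 0.976, 0.932 and 0.622 in LN3 thymus and 0.121 or less in the other 9 libraries. Hepatocytes and some epithelial cells also make arginase 1, and no value here shows which cells did.

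**Figure D4:**
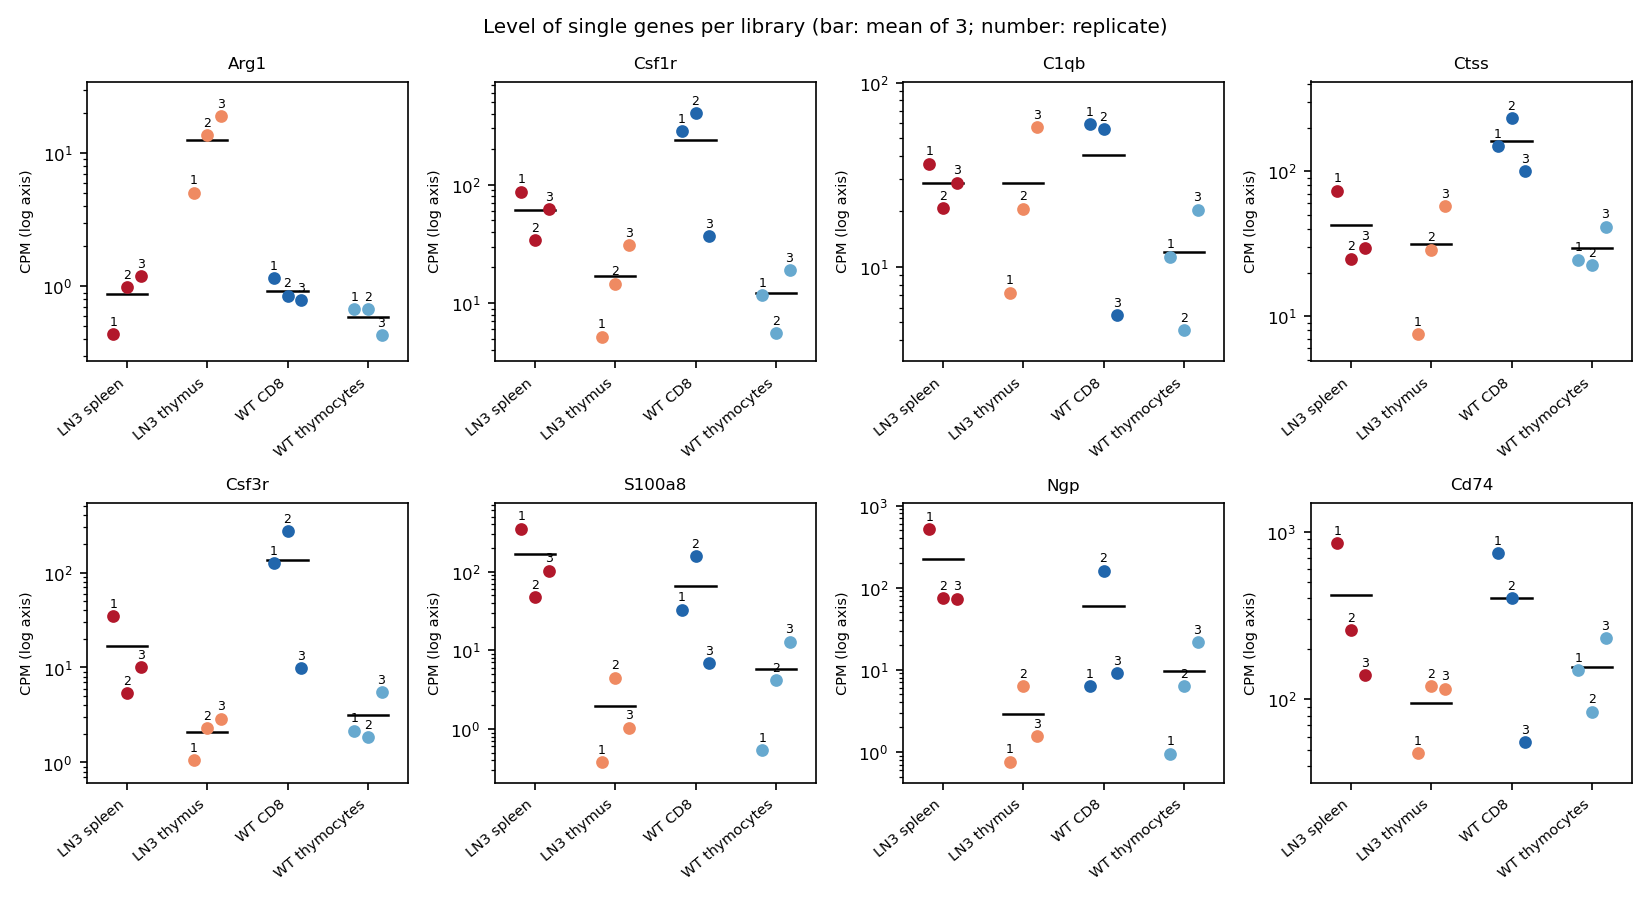
Level of 8 single genes (panels, CPM on a log axis) in each library (points, numbered by replicate), with bars at the mean of 3. Arg1 is high in the 3 LN3 thymus libraries alone, and S100a8 and Ngp are higher in each LN3 spleen library than in each LN3 thymus library.

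Fcgr3, Fcer1g and Tyrobp encode a low-affinity IgG receptor, the gamma chain it signals through and a related adaptor, and natural killer (NK) cells are known to use all 3 as well. Fcer1g stood at 22.7, 5.76 and 10.6 CPM in LN3 spleen, 1.89, 4.63 and 7.86 CPM in LN3 thymus, 54.5, 52.5 and 8.997 CPM in WT CD8, and 4.05, 1.35 and 4.65 CPM in WT thymocytes. Fcgr3 stood at 19.2, 4.98 and 11.1 CPM in LN3 spleen, 1.09, 5.96 and 14.6 CPM in LN3 thymus, 28.8, 49.3 and 5.04 CPM in WT CD8, and 2.5, 1.53 and 3.35 CPM in WT thymocytes. Tyrobp stood at 30.3, 5.68 and 8.31 CPM in LN3 spleen, 1.05, 5.21 and 7.43 CPM in LN3 thymus, 88.4, 74.5 and 10.4 CPM in WT CD8, and 5.47, 2.21 and 9.20 CPM in WT thymocytes. For each gene all WT CD8 libraries lay above all WT thymocyte libraries, beside 17.5% of all tested genes, and LN3 overlapped wild type in both organs. Beside them, the 8 NK cell markers summed to 165, 143 and 118 CPM in LN3 spleen, 125, 264 and 189 CPM in LN3 thymus, 718, 269.7 and 248 CPM in WT CD8, and 41.6, 36.99 and 60.04 CPM in WT thymocytes. Of the 8, 7 rose in WT CD8 relative to WT thymocytes, beside 7.24% of all tested genes. In LN3 spleen relative to WT CD8, 7 fell, beside 13.0%, and 1 had a positive difference (median log2 difference −5.25). In LN3 thymus relative to WT thymocytes, 1 of the 8 had a positive difference although the LN3 thymus sums were larger. The median there was −1.23, with 1 called higher and 1 lower, beside 6.06% and 5.21% of all tested genes. The defining marker Ncr1 was at 0 in LN3 spleen 2, LN3 spleen 3 and LN3 thymus 3. The parts of NK cells and of the T cells themselves in these values were not tested.

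Of the 3 transcription factors, Cebpb was called in 1 comparison, higher in WT CD8 than in WT thymocytes, beside 7.24% of all tested genes. Spi1 (PU.1) stood at 33.7, 6.08 and 9.68 CPM in LN3 spleen, 1.09, 3.14 and 6.20 CPM in LN3 thymus, 39.6, 64.4 and 6.90 CPM in WT CD8, and 4.73, 2.33 and 9.29 CPM in WT thymocytes. Cebpb, a C/EBP factor induced in activated myeloid cells, stood at 30.4, 7.38 and 6.43 CPM in LN3 spleen, 6.43, 17.3 and 9.12 CPM in LN3 thymus, 23.7, 26.4 and 6.90 CPM in WT CD8, and 3.18, 2.33 and 6.19 CPM in WT thymocytes. The 3 LN3 thymus libraries lay above the 3 WT thymocyte libraries for Cebpb, as for 14.4% of all tested genes, whereas Spi1 overlapped. Cebpa, which drives granulocyte and monocyte fate, ran from 0.630 CPM in LN3 thymus 1 to 14.6 CPM in WT CD8 2 and was called in no comparison by edgeR. In GENCODE M21, exons of Cebpa, Cebpb, Csf1r and Mpo overlap those of a gene on the other strand (Gm45091, Tmem189, Hmgxb3 and Gm11505), and exons of Clec9a and Cd74 overlap Clec1b and Mir5107 on their own strand. Whether the counting used the strand is not given in the sources used here, so values of those 6 members are less certain.

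Neutrophil genes had a median log2 difference of 6.07 between LN3 spleen and LN3 thymus, the largest of the 8 roles, although none was called. They comprise Csf3r, the receptor of the growth factor G-CSF, S100a8 and S100a9, which form the cytosolic protein calprotectin, and 5 granule proteins. Of these, Elane and Mpo encode elastase and myeloperoxidase, known from the promyelocyte stage, and Ngp, Camp and Ltf belong to granules made later in maturation. Their sum was 2035, 258 and 341 CPM in LN3 spleen, 4.54, 31.2 and 9.91 CPM in LN3 thymus, 247, 1153 and 57.1 CPM in WT CD8, and 7.91, 26.3 and 86.5 CPM in WT thymocytes. For each of the 8 genes all LN3 spleen libraries lay above all LN3 thymus libraries. Over the 37 genes this held for 14, beside 6.22% of all tested genes.

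S100a9 stood at 409.6, 50.8 and 105 CPM in LN3 spleen, 0.840, 5.71 and 1.66 CPM in LN3 thymus, 62.5, 228 and 11.1 CPM in WT CD8, and 1.22, 3.99 and 12.3 CPM in WT thymocytes. S100a8 stood at 354, 47.7 and 103 CPM in LN3 spleen, 0.378, 4.47 and 1.04 CPM in LN3 thymus, 33.0, 158 and 6.83 CPM in WT CD8, and 0.541, 4.17 and 12.8 CPM in WT thymocytes. Ngp stood at 516, 74.4 and 73.2 CPM in LN3 spleen, 0.756, 6.29 and 1.55 CPM in LN3 thymus, 6.28, 161 and 9.11 CPM in WT CD8, and 0.946, 6.26 and 21.7 CPM in WT thymocytes. All LN3 spleen libraries lay well above all LN3 thymus libraries for the 3 genes, LN3 overlapped wild type in both organs, and LN3 spleen 1 lay well above LN3 spleen 2 and 3. The other granule genes were also highest in LN3 spleen 1 and lowest in a LN3 thymus library, and ran from 0.253 to 136 CPM for Camp, 0.420 to 346 CPM for Ltf, 0 to 50.7 CPM for Elane and 0.504 to 189 CPM for Mpo.

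In LN3 spleen relative to LN3 thymus the log2 differences were 6.53 for S100a8 (SE 1.52, adjusted p = 0.0884), 6.18 for S100a9 (SE 1.34, adjusted p = 0.0628), 6.35 for Ngp (SE 1.67, adjusted p = 0.139), 6.48 for Camp (adjusted p = 0.108), 5.89 for Ltf (adjusted p = 0.219), 5.97 for Elane (adjusted p = 0.160), 5.24 for Mpo (adjusted p = 0.156) and 2.98 for Csf3r (adjusted p = 0.278). None of the 8 was called, and edgeR called 0 of the 37 genes higher in LN3 spleen than in LN3 thymus, beside 0.694% of all tested genes. At an unadjusted p below 0.05, 14 were higher, DESeq2 called 5 (S100a8, S100a9, Csf3r, Elane and Mpo) and limma 3 (S100a8, S100a9 and Ngp). The 37 genes had a median log2 difference of 1.61, and all tested genes one of −0.05. Markers of other spleen cells moved in the same comparison. The 8 erythroid markers summed to 6032, 1922 and 6480.5 CPM in LN3 spleen and 14.2, 143 and 9.66 CPM in LN3 thymus, the 11 B-cell markers to 6865, 984 and 491 CPM in LN3 spleen and 622, 485 and 390.4 CPM in LN3 thymus, and the 5 platelet markers to 27.6, 21.7 and 19.2 CPM in LN3 spleen and 6.01, 5.63 and 9.24 CPM in LN3 thymus. Of these markers, 4 of 8 erythroid, 1 of 11 B-cell and 2 of 5 platelet ones were called higher in LN3 spleen, and all had counts in these 6 libraries except the platelet gene Ppbp in LN3 thymus 2. Their part in the result was not tested.

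Between LN3 spleen and WT CD8, the difference of Csf3r was negative and those of the other 7 neutrophil genes were positive. Whether they differed from each other was not tested. Csf3r (chr4:126024550-126044440) stood at 34.4, 5.36 and 10.1 CPM in LN3 spleen, 1.05, 2.32 and 2.90 CPM in LN3 thymus, 126, 272 and 9.87 CPM in WT CD8, and 2.16, 1.84 and 5.51 CPM in WT thymocytes. WT CD8 1 and 2 lay above all LN3 spleen libraries, and WT CD8 3 lay below LN3 spleen 1 and 3. Relative to WT CD8, Csf3r fell by 3.04 in log2 units in LN3 spleen (SE 0.96, adjusted p = 0.0295), while the differences of the other 7 genes ran from 0.71 for Mpo to 2.39 for Camp (adjusted p 0.172 to 0.658), with overlapping groups and no call.

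Within libraries, S100a8 and S100a9 together were 22.2, 18.4 and 20.5 times Csf3r in LN3 spleen. The same ratio was 1.16, 4.39 and 0.932 in LN3 thymus, 0.757, 1.42 and 1.81 in WT CD8, and 0.813, 4.43 and 4.56 in WT thymocytes. Csf3r levels in the 3 LN3 spleen libraries differed 6.43-fold, and their ratios lay close together and above every other library. The 5 granule genes together were 35.9, 28.7 and 12.2 times Csf3r in LN3 spleen, 2.16, 8.07 and 1.49 times in LN3 thymus, 0.201, 1.82 and 2.97 times in WT CD8, and 1.84, 8.87 and 10.1 times in WT thymocytes. Again LN3 spleen lay above every other library. WT CD8 1 had the lowest granule ratio of all, with Csf3r at 126 CPM but Ngp at 6.28 CPM.

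The summed level of the 4 dendritic cell genes was lower in each LN3 thymus library than in each of the other 9. EdgeR called none of the 4 between LN3 and wild-type cells, beside 11.3% of all tested genes in the thymus and 30.9% in the spleen. Xcr1 and Clec9a mark the conventional dendritic cells that cross-present antigen, Siglech marks plasmacytoid dendritic cells, and Flt3 encodes the receptor of FLT3 ligand, used by dendritic cells and early progenitors. Flt3 stood at 9.59, 3.68 and 3.02 CPM in LN3 spleen, 0.798, 1.16 and 1.63 CPM in LN3 thymus, 19.8, 11.96 and 1.62 CPM in WT CD8, and 5.14, 3.99 and 5.51 CPM in WT thymocytes. Siglech stood at 6.37, 1.22 and 0.683 CPM in LN3 spleen, 0.588, 0.248 and 0.591 CPM in LN3 thymus, 26.7, 3.35 and 3.20 CPM in WT CD8, and 2.57, 4.29 and 2.24 CPM in WT thymocytes. All LN3 thymus libraries lay below all WT thymocyte libraries for both genes and for Xcr1. Such a separation held for 3 of the 37 genes, beside 12.8% of all tested genes.

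Their log2 differences in LN3 thymus relative to WT thymocytes were −2.61 for Siglech (SE 0.98, adjusted p = 0.114), −2.01 for Flt3 (SE 0.74, adjusted p = 0.108) and −1.19 for Xcr1 (SE 0.59, adjusted p = 0.238). Among the 4 genes edgeR and limma called none, 2 had an unadjusted p below 0.05, and DESeq2 called Flt3 (adjusted p = 0.0295). Xcr1 ran from 0.630 CPM in LN3 thymus 1 to 5.16 CPM in WT CD8 2. Clec9a stood at 3.40, 2.40 and 1.37 CPM in LN3 spleen, 0.168, 1.32 and 0.901 CPM in LN3 thymus, 11.4, 6.58 and 1.44 CPM in WT CD8, and 1.22, 0.797 and 0.430 CPM in WT thymocytes. It overlapped in the thymus and lay higher in every WT CD8 than in every WT thymocyte library. The 4 genes summed to 2.18, 3.81 and 3.94 CPM in LN3 thymus and to 10.9, 11.3 and 9.63 CPM in WT thymocytes, without overlap.

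MHC class II genes, which present antigen to CD4 T cells, overlapped between LN3 and wild-type cells in both organs, with no call by edgeR in any comparison. Between LN3 and wild type, 11.3% of all tested genes were called in the thymus and 30.9% in the spleen. Between the organs, 0.723% were called in LN3 and 15.7% in wild type. Without overlap, 14.4% lay higher and 12.8% lower in LN3 thymus, and 27.5% higher and 30.8% lower in LN3 spleen. Cd74 encodes the invariant chain, and H2-Aa, H2-Ab1 and H2-Eb1 encode chains of the I-A and I-E molecules. Cd74 stood at 856, 259.7 and 139 CPM in LN3 spleen, 47.8, 120.4 and 116 CPM in LN3 thymus, 743, 403 and 55.8 CPM in WT CD8, and 149.6, 84.7 and 233 CPM in WT thymocytes. LN3 spleen 1 and WT CD8 1 were the highest libraries and WT CD8 3 nearly the lowest. B cells make these molecules too. The MHC class II sum was 1656, 479 and 273 CPM in LN3 spleen and 1389.7, 714 and 98.4 CPM in WT CD8, and the B-cell marker sum had the same order of libraries, at 6865, 984 and 491 CPM in LN3 spleen and 2932, 1740.1 and 560.4 CPM in WT CD8. In WT thymocytes the 2 sums also had the same order, at 309, 175 and 532 CPM for MHC class II and 498, 379 and 679 CPM for B-cell markers. In LN3 thymus the order differed, with an MHC class II sum of 109, 265 and 228 CPM and a B-cell marker sum of 622, 485 and 390.4 CPM. The part of B cells in these levels was not tested. H2-Aa ran from 15.0 to 316 CPM, H2-Ab1 from 14.2 to 281 CPM and H2-Eb1 from 12.2 to 204 CPM, each highest in LN3 spleen 1. The log2 differences of Cd74 were 0.06 in LN3 spleen relative to WT CD8 (SE 0.79, adjusted p = 0.958) and −0.72 in LN3 thymus relative to WT thymocytes (SE 0.79, adjusted p = 0.638). The first changed sign, to −0.42 with library totals as scaling, to −0.27 with upper-quartile factors, to −0.99 without LN3 spleen 1 and to −0.45 without WT CD8 3.

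**Figure D5:**
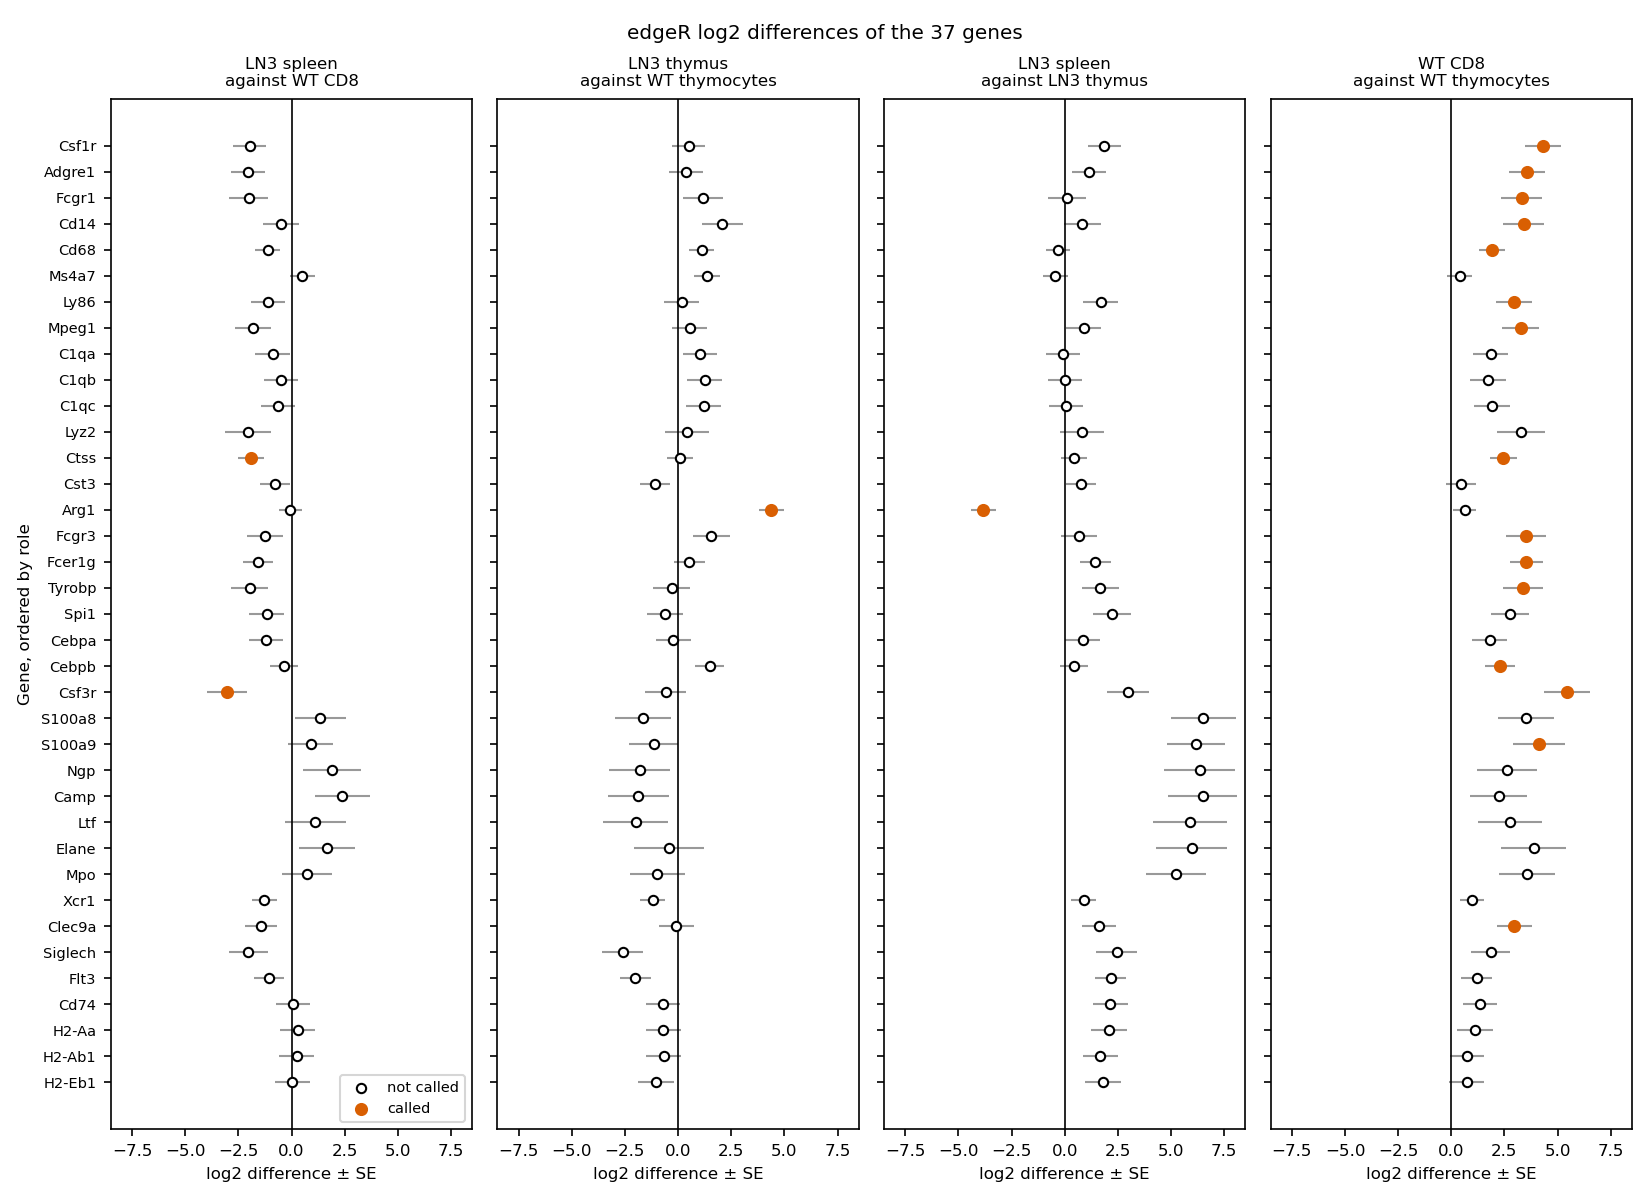
edgeR log2 difference of each of the 37 genes (down the page, by role) in 4 comparisons (panels), with bars of ± 1 SE and filled points for calls at an adjusted p below 0.05. The 15 calls in WT CD8 against WT thymocytes all lie to the right of 0, and the neutrophil genes lie far to the right in LN3 spleen against LN3 thymus with wide errors and no call.

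Over all 37 genes, 1 call (Arg1) was made between LN3 thymus and WT thymocytes. The median log2 difference was −0.22, beside −0.04 for all tested genes, and 3 genes (Arg1, Ms4a7 and Cebpb) had all LN3 libraries above all wild-type ones, beside 14.4% of all tested genes. No gene was called lower by edgeR, beside 5.21% of all tested genes, with 2 at an unadjusted p below 0.05, 1 by DESeq2 (Flt3, adjusted p = 0.0295) and 0 by limma. Scaling by library totals shifted the median of all tested genes by −0.19, and 38.2% of all calls were then higher in place of 53.8%. All 11 macrophage surface and C1q genes had positive differences and all 16 neutrophil, dendritic and MHC class II genes negative ones, without a call by edgeR. The other roles held both signs, and 17 of the 37 differences were positive. The sizes depended on single libraries. Leaving out 1 library gave 0.11 to 1.80 for C1qc, −2.97 to −0.41 for S100a8 and −1.03 to −0.30 for Cd74.

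In LN3 spleen relative to WT CD8 the median was −0.89, beside −0.11 for all tested genes, and 2 of the 37 genes were called lower (13.0% of all tested genes were). These were Csf3r and Ctss, which fell by 1.91 (SE 0.62, adjusted p = 0.0346). The Ctss call ended without LN3 spleen 2 (adjusted p = 0.110), LN3 spleen 3 (0.129), WT CD8 1 (0.0716), WT CD8 2 (0.113) or WT thymocytes 1 (0.0515). The Csf3r call ended without LN3 spleen 2 (0.0882), LN3 spleen 3 (0.113), WT CD8 1 (0.0606) or WT CD8 2 (0.132), and in limma (0.0838). Both calls ended with no filter on low counts (0.110 for Ctss and 0.123 for Csf3r). Without WT CD8 3, 8 genes were called lower, and without LN3 spleen 1, 5. DESeq2 called 5, limma 1, and 10 were lower at an unadjusted p below 0.05. Library totals as scaling shifted the median of all tested genes by −0.40 and gave 6 called lower, with 40.02% of all calls higher in place of 58.0%. No gene was called higher, beside 17.9% of all tested genes, nor by DESeq2 or limma, and 0 were at an unadjusted p below 0.05. Without WT CD8 2, Ngp and Camp were called higher.

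In WT CD8 relative to WT thymocytes all 37 differences were positive, with a median of 2.63, beside 0 for all tested genes, and 15 genes were called higher (7.24% of all tested genes were). They were Csf1r, Adgre1, Fcgr1, Cd14, Cd68, Ly86 and Mpeg1 of the macrophage surface, all 3 Fc receptor genes, Ctss, Cebpb, Csf3r, S100a9 and Clec9a. Csf3r had the largest difference (5.44, SE 1.08, adjusted p = 0.00494) and Cd68 the smallest of those called (1.92, SE 0.60, adjusted p = 0.0474). No WT CD8 library overlapped WT thymocytes for 11 of the 37 genes, beside 17.5% of all tested genes. The number called was 5 without WT CD8 1, 3 without WT CD8 2, 18 without WT CD8 3, 3 without WT thymocytes 1, 3 without WT thymocytes 2 and 6 without WT thymocytes 3. Csf1r, Fcer1g and Csf3r were called whichever library was left out. DESeq2 called 19, limma 8, and edgeR with no filter on low counts 7. Markers of other cell types moved in the same comparison, in both directions. B-cell markers rose in 6 of 11 (all 11 positive, median 2.82), NK cell markers in 7 of 8 (all positive, median 4.57) and platelet markers in 3 of 5 (all positive, median 2.69). Of the 8 erythroid markers, 3 had positive differences (median −2.02) and 1 was called higher. No tested marker of thymic epithelium (median −1.57) or stroma (median −1.46) had a positive difference. T-cell markers were called lower in 5 of 11 (median −0.94), beside 8.49% of all tested genes. B-cell markers summed to 2932, 1740.1 and 560.4 CPM in WT CD8 and 498, 379 and 679 CPM in WT thymocytes, and platelet markers to 66.5, 15.7 and 17.3 CPM in WT CD8 and 5.88, 5.77 and 7.40 CPM in WT thymocytes. Their part in the result was not tested. No gene was called lower by edgeR, DESeq2 or limma, beside 8.49% of all tested genes, and 0 were at an unadjusted p below 0.05.

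Of a further 66 myeloid genes in 5 lists, 62 were tested. In LN3 thymus relative to WT thymocytes, 3 of 21 tested macrophage and monocyte genes rose, beside 6.06% of all tested genes, and 15 had positive differences. None of the 21 was called lower by edgeR, DESeq2 or limma, with 1 at an unadjusted p below 0.05. Marco, a scavenger receptor, was 0.840, 8.69 and 3.89 CPM in LN3 thymus and 0.338, 0 and 0.602 CPM in WT thymocytes (log2 difference 3.86, adjusted p = 0.0401). Cd5l, a secreted protein of tissue macrophages, was 4.03, 18.7 and 7.38 CPM in LN3 thymus and 0.743, 0.491 and 1.72 CPM in WT thymocytes (log2 difference 3.36, adjusted p = 0.0180). Hmox1, the haem-degrading enzyme, was 4.79, 12.99 and 36.4 CPM in LN3 thymus and 2.03, 1.23 and 4.04 CPM in WT thymocytes (log2 difference 2.92, adjusted p = 0.0444). All 3 had every LN3 library above every wild-type one, and each call ended without LN3 thymus 2, WT thymocytes 1 or WT thymocytes 2 (adjusted p 0.0668 to 0.151). The Marco and Hmox1 calls also ended without LN3 spleen 3, LN3 thymus 3, WT CD8 2 or WT thymocytes 3 (0.0516 to 0.193), and the Hmox1 call without LN3 spleen 2 (0.0529). Of 12 dendritic genes, edgeR called 1, Ccr9, lower by 3.24 (adjusted p = 0.0126), and DESeq2 called 2 lower, beside 5.21% of all tested genes by edgeR. Thymocytes express Ccr9 as well, and it stood at 41.2, 21.3 and 149 CPM in LN3 thymus and 755, 649 and 599.8 CPM in WT thymocytes. Its call ended without LN3 thymus 1 (0.0530) and in another alternative that left out no single library (0.0781). Of 9 genes that load or control MHC class II, H2-Oa rose by 1.66 (adjusted p = 0.0281) and H2-Ob, its partner chain, fell by 1.96 (adjusted p = 0.0477). The H2-Oa call ended without LN3 thymus 2, LN3 thymus 3, WT thymocytes 1 or WT thymocytes 2 (0.0735 to 0.121), and the H2-Ob call without any 1 of the LN3 thymus, WT CD8 or WT thymocyte libraries (0.0608 to 0.139). Of 8 tested growth factors and receptors, edgeR called 1, Ifngr1, a chain of the interferon gamma receptor, lower by 1.65 (adjusted p = 0.00162), and DESeq2 called 3 lower. EdgeR called 0 of 12 other neutrophil genes, as did DESeq2 and limma, with 0 at an unadjusted p below 0.05.

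In LN3 spleen relative to WT CD8, 4 of the 21 macrophage and monocyte genes fell, beside 13.0% of all tested genes. None of the 21 was called higher by edgeR, DESeq2 or limma, with 0 at an unadjusted p below 0.05. Cx3cr1 (log2 difference −3.97, adjusted p = 0.00112) and Ly6c2 (−3.74, adjusted p = 0.00466) had the largest differences, and both are also known from CD8 T cells. Of the dendritic genes 3 fell, among them Cd209a (−3.49, adjusted p = 0.0265) and Itgax (−2.50, adjusted p = 0.0158). H2-Ob fell by 1.67 (adjusted p = 0.0397). The Cd209a call ended without LN3 spleen 2, LN3 spleen 3 or WT CD8 1 (0.0828 to 0.120), that of Itgax without LN3 spleen 3 or WT CD8 1 (0.0725 and 0.103), and that of H2-Ob without LN3 spleen 2 or 3, LN3 thymus 1, WT thymocytes 1 or 2, or any WT CD8 library (0.0501 to 0.131). Of the growth factors and receptors 3 fell, among them Flt3l, the FLT3 ligand (−2.45, adjusted p = 0.00231), at 17.003, 5.36 and 9.57 CPM in LN3 spleen and 63.1, 40.2 and 70.1 CPM in WT CD8, and 1, Il34, rose (4.26, adjusted p = 0.0177). The Il34 call ended without LN3 spleen 2, WT CD8 1 or WT CD8 3 (0.0579 to 0.125) and in limma (0.513). In LN3 spleen relative to LN3 thymus edgeR called none of the 62, beside 0.723% of all tested genes, while 23 passed an unadjusted p of 0.05. Shares of all tested genes at an unadjusted p or by DESeq2 and limma are not given here. The 12 other neutrophil genes, with a median log2 difference of 5.0, were all among the 23 genes with an unadjusted p below 0.05. DESeq2 called 9 of these 12 and limma 1, and of the others DESeq2 called 4 macrophage, 2 dendritic and 2 MHC class II genes and limma 0. In WT CD8 relative to WT thymocytes, 14 of 21 macrophage genes rose, beside 7.24% of all tested genes, led by Hmox1 (log2 difference 5.40, adjusted p = 0.00215) and the iron exporter Slc40a1 (4.91, adjusted p = 0.000794), and 6 of 12 neutrophil genes rose, led by Retnlg (5.58, adjusted p = 0.0169) and Ctsg (5.46, adjusted p = 0.0471). Both of these calls ended without any 1 of the WT thymocyte libraries (0.0626 to 0.149), and that of Ctsg also without LN3 spleen 2, WT CD8 1 or WT CD8 2 (0.0518 to 0.208). The Retnlg call also ended in another alternative (0.215). DESeq2 called 8 of the 12 neutrophil genes higher and limma 1, and of the macrophage genes DESeq2 called 16 and limma 12.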

How the data were processed

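The table of estimated counts per gene was made by the authors with kallisto 0.46.1, a pseudoaligner, on build GRCm38, per the submitters' processing notes, which also name FastQC and DESeq2. The sources used here give neither the annotation release nor the use of strand. All values (100%) in the authors' table of estimated counts were whole as deposited, and rounding left them as they were. The authors also deposited variance-stabilized values on a log2 scale, used here only with limma.

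Genes were filtered with filterByExpr, scaled with TMM factors and fitted with edgeR 4.0.16 in R 4.3.3 (robust quasi-likelihood test on the means of 4 groups and 12 libraries, with 8 residual degrees of freedom). Adjusted p-values are Benjamini-Hochberg over all 20897 genes tested in a comparison. Standard errors belong to the log2 differences. The interaction is the LN3 spleen against WT CD8 difference minus the LN3 thymus against WT thymocytes difference. DESeq2 1.42.0, limma 3.58.1, other scalings, filters, sample subsets and each library left out were alternatives. The scripts were tested on simulated counts for LN3 thymus against WT thymocytes. Of 100 genes with a simulated log2 difference of 2 in size, 48 were called in the right direction, and of 100 with 4, 91. Differences of about 2 without a call therefore do not show that a gene was unchanged. Counting intervals (95%) and the floor of 3 counts cover counting error only. Comparisons that share a group share its libraries.

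The members and lists, 66 further myeloid genes and 7 marker lists (T cell, B cell, NK cell, erythroid, thymic epithelium, stroma and platelet), were chosen with earlier results of these data known. Per-library levels are given for every member called in a comparison and for the member with the highest mean in each of the 8 roles, for S100a8, Ngp and Siglech in addition, and ranges for others. Of the further lists, at most the 2 called genes with the largest difference are named in a comparison, except where Hmox1, chosen after its value was seen, completes a count of 3, and Il34.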

Additional observations from a re-analysis of the deposited data

Results flagged for a closer look

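Arg1 was set aside for a closer look because its difference between LN3 and wild-type cells was unlike in the 2 organs. The enriched WT CD8 group enters this interaction, so enrichment cannot be told apart from genotype and organ in it. The difference between the effect in the spleen and that in the thymus was −4.44 on the log2 scale (SE 0.78, adjusted p = 0.00725, edgeR's quasi-likelihood test). It was called in each fit that left out 1 library, with values from −4.85 to −4.01 and adjusted p up to 0.0228.

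Il34, which encodes a second ligand of the receptor Csf1r, was set aside for the same reason, with a difference of 6.83 (SE 1.48, adjusted p = 0.0210). Its counts were low. It stood at 0.436, 0.956 and 0 CPM in LN3 spleen, 0.294, 1.16 and 0.648 CPM in LN3 thymus, 0, 0.0316 and 0.0219 CPM in WT CD8, and 3.24, 2.21 and 6.80 CPM in WT thymocytes. WT CD8 held 2 counts in all against 38 in LN3 spleen, a ratio per scaled total of 28.6 (95% counting interval 7.38 to 244.5), so the fitted value depends on the prior count. The call ended without LN3 spleen 2 (adjusted p = 0.0871), LN3 thymus 3 (0.0542), WT CD8 1 (0.0619) or WT CD8 3 (0.0672), and in limma (0.150).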

How the results depend on the processing

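With DESeq2, the number of the 37 genes called lower in LN3 thymus than in WT thymocytes was 1 in place of 0, lower in LN3 spleen than in WT CD8 5 in place of 2, and higher in LN3 spleen than in LN3 thymus 5 in place of 0. With limma the numbers were 1 lower in LN3 spleen than in WT CD8, 3 higher in LN3 spleen than in LN3 thymus, and 8 in place of 15 higher in WT CD8 than in WT thymocytes. With the 2 compared groups alone, 2 were lower in LN3 thymus than in WT thymocytes and 1 lower in LN3 spleen than in WT CD8. With no filter on low counts, 0 were lower in LN3 spleen than in WT CD8 and 7 higher in WT CD8 than in WT thymocytes. Lower in LN3 spleen than in WT CD8 were 6 with library totals and 4 with upper-quartile factors. Leaving out 1 library at a time gave 0 to 1 lower in LN3 thymus than in WT thymocytes, 0 to 2 higher and 0 to 8 lower in LN3 spleen than in WT CD8, 0 to 2 higher and 0 to 1 lower in LN3 spleen than in LN3 thymus, and 3 to 18 higher in WT CD8 than in WT thymocytes. Arg1 in the thymus and in the interaction kept its direction and call under every alternative run. Cd74 in LN3 spleen relative to WT CD8 changed sign under the 4 alternatives given with it (−0.42 and −0.27 with other scalings, and −0.99 to 0.91 with 1 library left out, against 0.06). The causes were not tested.

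The deviations of same-numbered libraries 1 to 3 had correlations of 0.142, −0.518 and −0.134 between LN3 thymus and WT thymocytes, 0.336, −0.197 and 0.142 between LN3 spleen and WT CD8, −0.150, −0.528 and −0.0412 between LN3 spleen and LN3 thymus, and 0.0440, 0.000226 and −0.135 between WT CD8 and WT thymocytes. No comparison had all 3 above 0.1, so the numbers were not taken to pair the samples. With 3 libraries in a group, this check cannot show whether same-numbered LN3 samples came from the same mouse. With a replicate block for the number, 0 genes were lower in LN3 spleen than in WT CD8 and 6 higher in WT CD8 than in WT thymocytes, and with a block nested in genotype 0 were (Csf1r 0.0726, Fcer1g 0.0843 and Csf3r 0.0872 as adjusted p). The nested block could not be fitted to the LN3 against wild-type comparisons, nor a fit of 2 groups to the interaction. Leaving out the 4 genes that collect ribosomal RNA reads was chosen after seeing the data. Depth limits Fcgr1, Cd14, Arg1, Camp, Elane, Clec9a and Siglech, which had 5 counts or fewer in at least 1 library.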
